A study of Mus musculus with 20 samples.

Results

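The mucin O-glycosylation enzymes are the genes whose products build the sugar chains of mucins, the gel-forming and membrane-bound glycoproteins of the gut surface. The set held 10 genes, found by symbol through the GENCODE annotation of the mouse, out of 26619 genes in the count table. The rule uses no measured value, but the set was proposed with earlier results of these data known. All 10 had enough reads to be among the 17893 genes tested. They are Galnt3 and Galnt12, which start a chain, C1galt1, C1galt1c1, B3gnt6 and Gcnt3, which build its cores, B3gnt7, which lengthens it, and Fut2, B4galnt2 and St6galnac6, which cap it.

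RNA was sequenced from pieces of distal colon (DC) of 20 C57BL/6 mice, 5 mice on each of 4 diets, with 1 library per mouse. All mice, the controls included, ate the Total Western Diet (TWD), a feed made to mirror human nutrient intake in the United States, for 6 weeks from 3 weeks of age. For a further 3 weeks they were given the TWD with 0, 2, 5 or 10% resistant potato starch (RPS), which the labels call raw potato starch and which escapes digestion until it reaches bacteria of the large bowel. The comparisons ask how the level of RPS in a Western diet moves gene expression in the DC. The description and the treatment label disagree for 3 mice. The former puts RS10_717 on 5% RPS and the latter on 2%, RS10_725 is placed on 10% or 5%, and RS10_748 on 2% or 10%. Groups here follow the description.

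Libraries held 18.4 to 34.97 megacounts, and all 5 at 10% RPS (18.4 to 26.6 megacounts) were shallower than all 5 at 0% RPS (31.3 to 34.97 megacounts). The tissue label was checked against its markers. Summed over 10 goblet cell markers the libraries held 8286 to 17153 CPM (counts per megacount of scaled library size), and over 8 epithelial markers 11313 to 18615 CPM. Mouse RS10_721 (5% RPS) stood apart with 6649 CPM of 11 pancreatic acinar genes, and mouse RS10_784 (10% RPS) followed with 916.5 CPM. Cela1 made up 96.5% or more of this sum in the other 18 mice, and without Cela1 the sum was 5378 CPM in RS10_721, 480.04 CPM in RS10_784 and at most 14.1 CPM in any other mouse. Markers of anal skin keratinocytes summed to 4.35 to 10.6 CPM. In a whole piece of tissue, fewer cells of a type and less RNA per cell cannot be told apart.

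O-glycosylation takes place in the Golgi. A polypeptide GalNAc transferase such as the products of Galnt3 or Galnt12 places N-acetylgalactosamine on a serine or threonine of the mucin. The core 1 synthase C1galt1, which folds with the help of its chaperone C1galt1c1 (Cosmc), adds galactose, or the core 3 synthase B3gnt6 adds N-acetylglucosamine. Gcnt3 branches either core, B3gnt7 adds N-acetylglucosamine to extend chains, and the ends are closed by fucose (Fut2), N-acetylgalactosamine in the Sd(a) structure (B4galnt2) or sialic acid (St6galnac6). The chains hold water in the mucus, shield the protein and feed bacteria of the colon.

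The sequences before the start site of C1galt1, Galnt3, B4galnt2 and St6galnac6 are shown as examples. Levels of C1galt1, Galnt3 and B4galnt2 varied together over the mice, as given further on. Galnt3 varied as closely with St6galnac6 (r = 0.70) as with C1galt1 (r = 0.69). A link between these sequences and the levels was not tested. Promoters were found in the RefSeq table (build GRCm38.p6) for 5 enzymes, these 4 and B3gnt7. The 250 bases before the start are printed 5′ to 3′ on the strand of the gene, with capitals for matches to the GC box GGGCGG on either strand. The C1galt1 window is chr6:7844974-7845223 (plus strand), the Galnt3 window chr2:66124794-66125043 (minus strand), the B4galnt2 window chr11:95914872-95915121 (minus strand) and the St6galnac6 window chr2:32599459-32599708 (plus strand).
C1galt1: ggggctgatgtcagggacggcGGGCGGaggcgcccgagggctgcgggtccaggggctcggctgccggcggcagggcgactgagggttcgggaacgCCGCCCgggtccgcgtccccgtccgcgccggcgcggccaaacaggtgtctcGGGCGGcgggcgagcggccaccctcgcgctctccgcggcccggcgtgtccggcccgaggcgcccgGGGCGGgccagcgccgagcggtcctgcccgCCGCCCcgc
Galnt3: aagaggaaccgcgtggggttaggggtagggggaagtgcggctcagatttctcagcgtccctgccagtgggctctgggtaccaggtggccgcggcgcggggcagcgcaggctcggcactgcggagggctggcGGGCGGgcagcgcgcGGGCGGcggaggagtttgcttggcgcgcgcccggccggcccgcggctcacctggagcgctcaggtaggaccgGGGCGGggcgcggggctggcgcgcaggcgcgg
B4galnt2: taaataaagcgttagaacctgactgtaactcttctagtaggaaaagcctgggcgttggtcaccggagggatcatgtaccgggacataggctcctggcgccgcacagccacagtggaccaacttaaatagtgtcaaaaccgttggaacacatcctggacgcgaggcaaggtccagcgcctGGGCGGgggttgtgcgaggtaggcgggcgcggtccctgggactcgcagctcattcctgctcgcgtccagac
St6galnac6: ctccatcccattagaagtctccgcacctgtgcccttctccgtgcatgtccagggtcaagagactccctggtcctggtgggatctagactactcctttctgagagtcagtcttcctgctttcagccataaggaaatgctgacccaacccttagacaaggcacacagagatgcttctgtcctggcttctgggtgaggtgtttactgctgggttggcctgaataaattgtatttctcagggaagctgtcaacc

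The C1galt1 window held 5 GC boxes, the Galnt3 window 3, the B3gnt7 window 2, the B4galnt2 window 1 and the St6galnac6 window 0. GC boxes lie in 32.7% of the 32851 promoter windows of that length. The CCAAT box, found in 33.8% of windows, the TATA box TATAAA, found in 12.4%, and the E-box CACGTG, found in 6.02%, were each searched on both strands and had no match in these windows, except for 1 E-box in that of B3gnt7. G and C made up 82.8% of the C1galt1 window, 76.8% of the Galnt3 window, 61.6% of the B3gnt7 window, 58.4% of the B4galnt2 window and 51.6% of the St6galnac6 window, against a median of 52.4%. The C1galt1 window had a higher GC share than 99.5% of promoters.

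The enzymes differed widely in level. Per kilobase of merged exons, over 20 mice, B3gnt7 stood at 243 ± 31.1 CPM (SD) and St6galnac6 at 112 ± 10.6 CPM, on either side of Muc2, the main secreted mucin of the colon, at 190.6 ± 41.1 CPM. On the same scale Fut2 (22.2 ± 6.23) and Galnt12 (21.6 ± 2.78) did not differ beyond their spread, nor did Gcnt3 (15.3 ± 2.5) and C1galt1c1 (14.7 ± 1.55). C1galt1 followed at 11.1 ± 1.72 CPM per kilobase. B4galnt2 (8.74 ± 5.71) and Galnt3 (7.29 ± 1.44) again lay within their spread of each other. B3gnt6, the core 3 synthase, came last at 0.321 ± 0.117 CPM per kilobase, on 7 to 37 reads a mouse, so its values carry large counting error. With the length of the longest transcript instead, B3gnt7 stood at 384.5, St6galnac6 at 244 and Fut2 at 41.3 CPM per kilobase, with St6galnac6 then above Muc2. On that length Fut2 (41.3 ± 11.6) lay above Galnt12 (22.8 ± 2.94) by more than their spread.

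**Figure D1:**
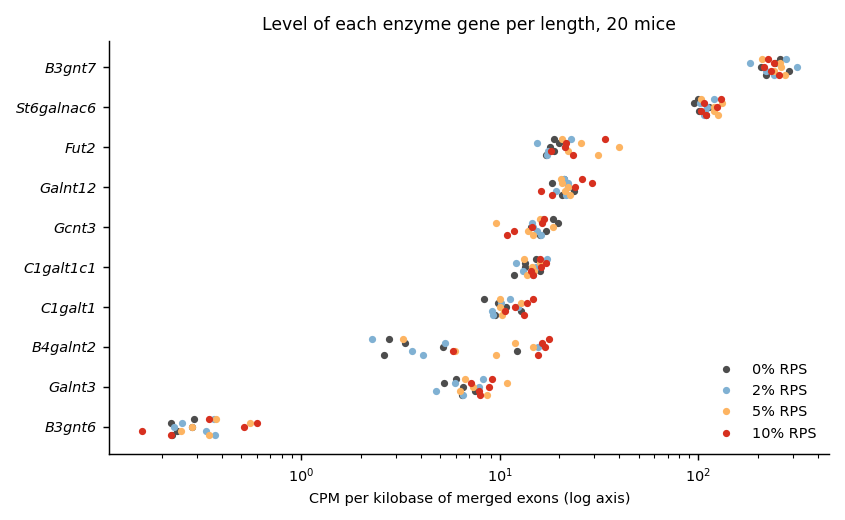
Level of each enzyme gene in CPM per kilobase of merged exons (horizontal log axis), 1 point per mouse coloured by diet. B3gnt7 and St6galnac6 lie highest, B3gnt6 lowest (0.321 on average), and the points of B4galnt2 span the widest range, from 2.27 to 17.6.

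No enzyme passed the threshold at any level of RPS. In edgeR's quasi-likelihood test across all tested genes (adjusted p at most 0.05 by Benjamini-Hochberg and at least 1.5-fold), 0 of 10 were called at 10% RPS against 0% RPS, where 0.0391% of tested genes were called. At 5% and at 2% RPS the count was also 0 of 10, beside 0.00% and 0.00% of tested genes. A linear trend over RPS percent was called for 0 of 10 enzymes (2.10% of tested genes) and a difference among any of the 4 diets for 0 of 10 (0.0727%), both without a fold threshold. The pairwise comparisons share the mice at 0% RPS.

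At an unadjusted p under 0.05, edgeR counted 4 of 10 enzymes at 10% RPS, all of them higher (Galnt3, C1galt1, Fut2 and B4galnt2), where 15.2% of tested genes reached that level and 7.32% reached it in the higher direction. At 5% RPS it counted 3 of 10, all higher (Galnt3, Fut2 and St6galnac6), beside 9.19% and 4.69%. At 2% RPS it counted 0 of 10, beside 1.41%. For the trend it counted 5 of 10, beside 19.1%, of which Galnt3, C1galt1, Fut2 and B4galnt2 had a positive slope and Gcnt3 a negative one. For any difference among diets it counted 3 of 10 (Galnt3, C1galt1 and Fut2), beside 10.6%. The members counted changed with the labels. Under the treatment label edgeR counted 4 of 10 at 10% RPS, all higher (Galnt3, C1galt1, C1galt1c1 and B3gnt6, beside 10.6% of genes), and the same 4 for the trend (beside 13.0%). At 5% RPS it then counted 2, Fut2 with a higher and Gcnt3 with a lower estimate, beside 7.50%. Without the 3 mice whose labels disagree it counted 5 of 10 at 10% RPS, all higher (Galnt3, C1galt1, C1galt1c1, B3gnt6 and B4galnt2, beside 13.0%), 2 at 5% RPS (Fut2 and St6galnac6, both higher, beside 6.20%) and 7 for the trend (beside 16.8%). In both alternatives the count at 2% RPS was 0 and that of any difference was 1 (beside 5.96% and 8.10%). The median log2 fold change of the 10 enzymes was 0.25 at 10% RPS, 0.14 at 5% and 0.05 at 2%, while that of all tested genes was -0.01, -0.01 and -0.00.

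DESeq2, run as an alternative, called 0 of 10 enzymes in the 3 pairwise comparisons, where it called 1.25% of genes at 10% RPS, 0.195% at 5% and 0.00386% at 2%. It called 2 of 10 for the trend, C1galt1 (adjusted p = 0.0466) and B4galnt2 (adjusted p = 0.0415), beside 5.60% of genes, and 1 of 10 for any difference, Fut2 (adjusted p = 0.0426), beside 2.09%. With groups set by the treatment label, or with RS10_717, RS10_725 and RS10_748 omitted, DESeq2 called 0 of 10 in both tests. When single mice were left out, the trend call held in 9 of 20 fits for C1galt1 and 8 of 20 for B4galnt2, and the call of Fut2 in 7 of 20. The share of all genes called in these fits was not computed.

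**Figure D2:**
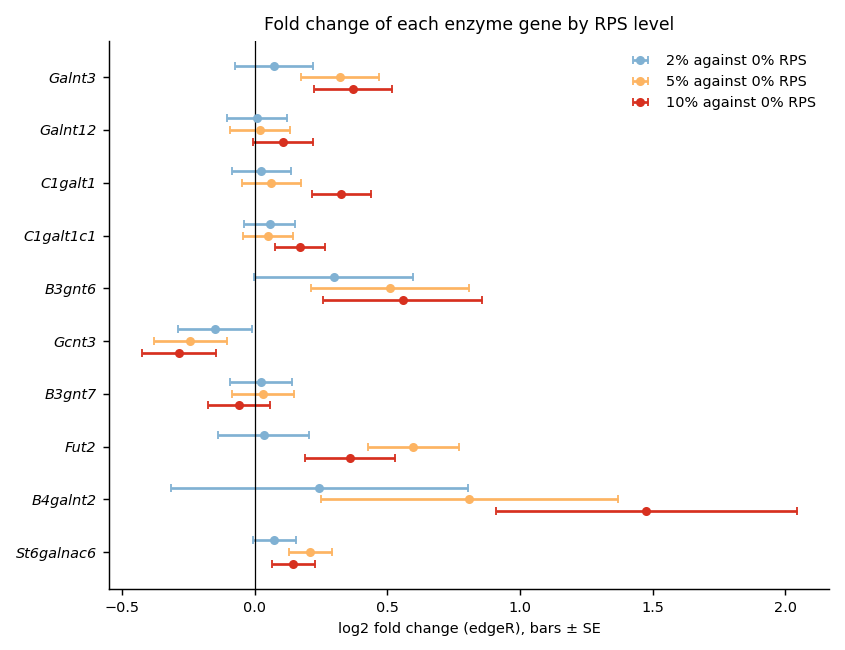
Log2 fold change of each enzyme gene at 2, 5 and 10% RPS against 0% RPS in edgeR (horizontal axis), with bars of 1 SE. B4galnt2 has the largest estimate and the widest bar (1.48 ± 0.57 at 10% RPS), Gcnt3 lies below 0 at all 3 levels, and no estimate was called.

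The initiating enzymes were Galnt3 and Galnt12. Galnt3 (chr2:65913110-65955482, GRCm39) read 35.2, 40.9, 35.5, 28.7 and 32.9 CPM in the mice at 0% RPS, given here and for the other enzymes in the order of the mouse columns of the plot of mouse deviations. The 2% mice had 35.9, 26.1, 42.9, 32.6 and 44.9 CPM, the 5% mice 46.9, 34.4, 39.8, 59.3 and 36.3 CPM, and the 10% mice 43.7, 42.9, 48.1, 39.2 and 50.2 CPM. The highest control was exceeded by 4 of 5 mice at 10% RPS and 2 of 5 at 5% RPS, and the highest value of all, 59.3 CPM, came from mouse RS10_721, the library with the most pancreatic transcripts. For Galnt3 the edgeR log2 fold change was 0.37 ± 0.15 (SE, adjusted p = 0.235) at 10% RPS and 0.32 ± 0.15 (adjusted p = 0.522) at 5% RPS. Without mouse RS10_721 the latter was 0.18. Galnt12, a transferase of the digestive tract, had group means of 63.7 ± 5.87, 64.0 ± 3.57, 64.6 ± 2.71 and 68.6 ± 16.2 CPM (SD, n = 5) from 0 to 10% RPS. The 10% mice were the most spread, with 3 above and 2 below all controls, from 49.0 CPM in mouse RS10_727 to 87.7 CPM in mouse RS10_731.

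C1galt1, the core 1 synthase (chr6:7844634-7875687, GRCm39), read 115.1, 156.1, 130.8, 119.5 and 101.7 CPM in the 5 control mice. At 10% RPS the values were 161.7, 129.7, 145.0, 166.5 and 178.1 CPM, and 3 of 5 mice lay above the highest control. The means at 2% and 5% RPS, 126.8 ± 16.5 and 130.1 ± 14.53 CPM, were close to the 124.6 ± 20.4 CPM of the controls, and no mouse on these diets passed the highest control. The log2 fold change at 10% RPS was 0.33 ± 0.11 (edgeR adjusted p = 0.170), and the trend over 10 percent RPS was 0.33 on the log2 scale (adjusted p = 0.0759), the smallest trend p among the enzymes. The trend was called in edgeR (adjusted p = 0.0218) without control mouse RS10_703, which had 156.1 CPM, and without mouse RS10_727 (adjusted p = 0.0321), the lowest at 10% RPS. The fit without RS10_727 called a trend for 1148 of all genes, against 375 with all mice. C1galt1 overlaps a pseudogene, Gm43962, on the other strand over 1.57% of its exons.

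C1galt1c1, the chaperone of C1galt1 on the X chromosome, varied little. Its means were 35.4 ± 4.23, 36.8 ± 5.16, 36.7 ± 2.78 and 39.8 ± 2.86 CPM from 0 to 10% RPS, and the log2 fold change at 10% RPS was 0.17 ± 0.10 (edgeR adjusted p = 0.403). B3gnt6 had means of 0.604 ± 0.0781, 0.743 ± 0.154, 0.864 ± 0.285 and 0.882 ± 0.450 CPM. At 10% RPS 3 of its mice lay above and 2 below all controls, and the log2 fold change of 0.56 ± 0.30 had an edgeR adjusted p of 0.383. Without mouse RS10_731 it was 0.31 (adjusted p = 0.703). The B3gnt6 gene shares 4.98% of its exon bases with the antisense transcript Gm16938.

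Gcnt3, which makes core 2 and core 4 branches, was the enzyme with lower estimates at all 3 levels of RPS. Its controls read 68.8, 73.8, 61.9, 84.3 and 80.04 CPM. The 10% mice had 46.9, 50.9, 62.5, 70.5 and 71.9 CPM, with 2 of 5 below the lowest control and the others inside the control range. The lowest Gcnt3 value, 41.0 CPM, was in mouse RS10_721 (5% RPS). Gcnt3 had a log2 fold change of -0.28 ± 0.14 at 10% RPS (edgeR adjusted p = 0.337), -0.24 ± 0.14 at 5% (adjusted p = 0.617; -0.13 without mouse RS10_721) and -0.15 ± 0.14 at 2% (adjusted p = 0.9997). Under the treatment label the Gcnt3 value at 10% RPS was -0.17, and its trend was -0.014 per percent RPS on the log2 scale, against -0.026 under the description.

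B3gnt7, the extending enzyme and the most abundant of the 10 per length, gave no difference larger than its spread. The controls read 909.5, 1186.9, 852.2, 1006.2 and 1069.4 CPM and the 10% mice 1060.3, 959.7, 886.3, 990.7 and 925.6 CPM, all inside the control range. Its log2 fold change at 10% RPS was -0.06 ± 0.12 (edgeR adjusted p = 0.859). The antisense transcript Gm28626 covers 18.3% of the exon bases of B3gnt7, and reads of the pair could be split if the counting ignored strand.

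Among the capping enzymes, Fut2, the secretor alpha-1,2-fucosyltransferase (chr7:45298015-45315818, GRCm39), was the 1 enzyme of the 10 with a diet, 5% RPS, whose mice did not overlap the controls. Controls read 94.6, 104.1, 99.1, 110.6 and 103.8 CPM, and the 5% mice 173.0, 122.3, 222.2, 143.1 and 114.4 CPM. Thus 1 of 10 enzymes had no overlap at 5% RPS, where 1.04% of tested genes had none, and 0 of 10 at 10% RPS (2.28% of tested genes) and 2% RPS (0.240%). At 5% RPS the log2 fold change was 0.60 ± 0.17 (edgeR adjusted p = 0.328). It was 0.43 without mouse RS10_719, the highest of all 20. At 10% RPS the Fut2 values were 129.8, 100.3, 117.9, 119.9 and 188.9 CPM, with 4 of 5 mice above the highest control, and the log2 fold change was 0.36 ± 0.17 (adjusted p = 0.326). That estimate was 0.19 without mouse RS10_784, the highest at 10% RPS and the library with 480.04 CPM of pancreatic genes other than Cela1. Without the same mouse the 10% estimates of Galnt3, C1galt1 and B4galnt2 were 0.33, 0.28 and 1.4. The 2% mice, at 104.9 ± 16.9 CPM, lay around the control mean of 102.4 ± 6.02 CPM.

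B4galnt2, which adds the terminal N-acetylgalactosamine of the Sd(a) antigen (chr11:95754392-95805752, GRCm39), varied more than any other enzyme, 7.79-fold between its lowest and highest mouse. The controls read 10.7, 50.3, 21.5, 13.7 and 11.4 CPM. The 2% mice read 17.0, 15.01, 64.1, 21.96 and 9.37 CPM. The 5% mice read 39.6, 24.6, 61.2, 49.5 and 13.4 CPM, and the 10% mice 64.6, 24.05, 69.9, 67.5 and 73.0 CPM. All but 1 of the 10% mice exceeded the highest control, while each of the 0 and 2% groups held 1 high mouse, RS10_703 and RS10_715, and the 10% group 1 low mouse, RS10_727. The means were 21.5 ± 16.6, 25.5 ± 22.1, 37.6 ± 19.1 and 59.8 ± 20.2 CPM. The log2 fold change at 10% RPS was 1.48 ± 0.57 (edgeR adjusted p = 0.233), at 5% RPS 0.81 ± 0.56 (adjusted p = 0.680) and at 2% RPS 0.24 ± 0.56 (adjusted p = 0.9997). Without mouse RS10_703 the 10% value was 2.07 (adjusted p = 0.0741) and the 5% value 1.39 (adjusted p = 0.417). The trend over 10 percent RPS was 1.51 on the log2 scale (adjusted p = 0.101). It was called without mouse RS10_703 (adjusted p = 0.0368) and without mouse RS10_727 (adjusted p = 0.0467). In the latter fit a trend was called for 1148 of all genes, against 375 with all mice. Mouse RS10_748, whose labels disagree (2% or 10%), had the lowest B4galnt2 value of all, 9.37 CPM. Antisense transcripts share 8.01% (4833417C18Rik) and 6.36% (Gm11534) of the exon bases of B4galnt2.

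**Figure D3:**
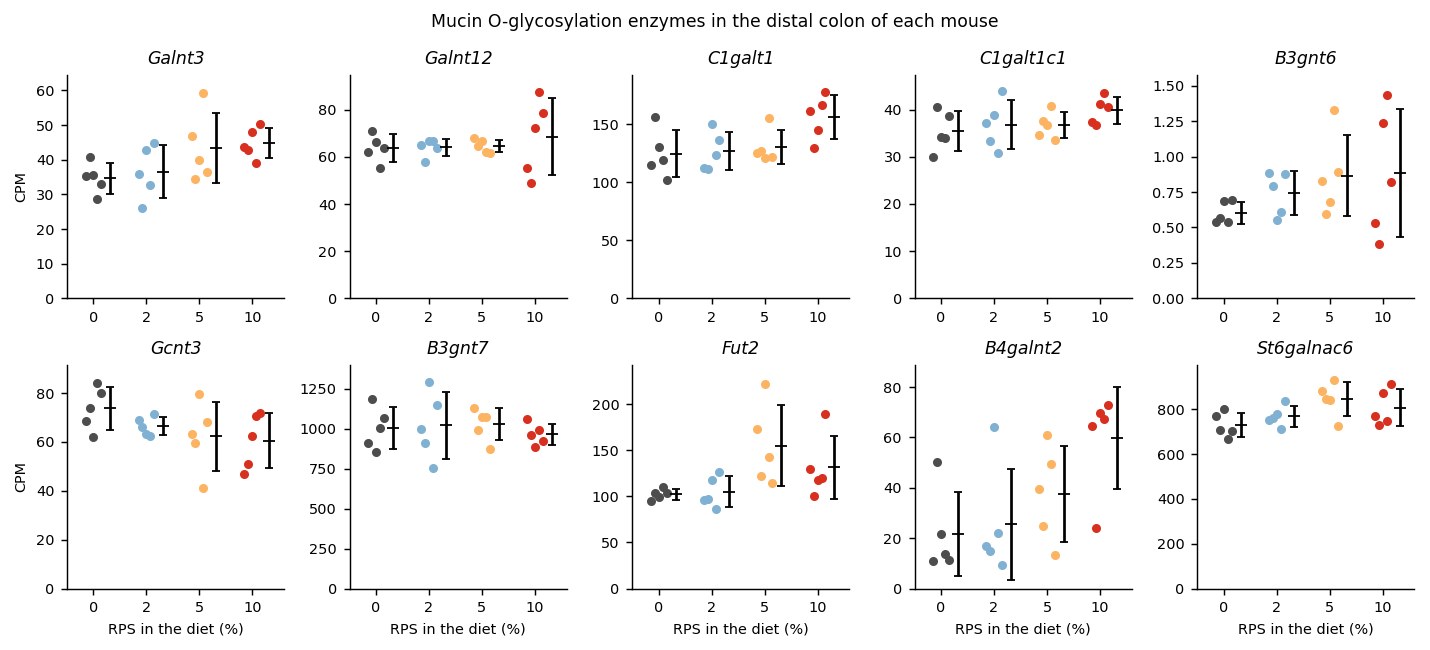
CPM of each enzyme gene (vertical axes from 0) by the percent of RPS in the diet, 1 point per mouse, with the mean and SD of 5 mice as a black dash and bar. B4galnt2 has 4 of 5 mice at 10% RPS above the highest control (50.3 CPM), the 5% mice of Fut2 lie above all controls, and the groups of the other panels overlap.

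St6galnac6, an alpha-2,6-sialyltransferase, was abundant and even, with 770.8, 708.4, 799.7, 669.3 and 703.3 CPM in the controls. The 5% mice had 882.4, 846.3, 841.3, 929.5 and 725.5 CPM, and 4 of 5 lay above the highest control, with mouse RS10_721 highest. Without that mouse the log2 fold change at 5% RPS was 0.17. With all mice the estimate was 0.21 ± 0.08 at 5% RPS (edgeR adjusted p = 0.434) and 0.15 ± 0.08 at 10% RPS (adjusted p = 0.401).

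Sums of marker genes are given beside these values, because some differed between the diets in the same mice. Summed surface colonocyte markers (7 genes) were 4898 ± 746 CPM at 0% RPS and 7147 ± 454 CPM at 10% RPS, with no overlap (4283 to 6067 against 6494 to 7603 CPM). Summed goblet cell markers were 10133 ± 1661 and 12655 ± 3103 CPM, and epithelial markers 13539 ± 1782 and 15341 ± 1558 CPM. The goblet cell markers went in both directions. Clca1 read 1637, 2638, 1708, 1279 and 1399 CPM in the controls and 2888, 2184, 3052, 4032 and 2457 CPM in the 10% mice. Tff3 read 992.3, 1084.9, 1019.4, 915.4 and 1118.8 CPM in the controls and 718.4, 775.2, 852.4, 1190.9 and 880.0 CPM in the 10% mice. Tff3, Spdef, Atoh1 and Bcas1 had lower means at 10% RPS, and the other goblet cell markers higher ones. Summed leukocyte markers (7 genes, all detected) were 287 ± 255 CPM (117.2 to 737) at 0% RPS and 534 ± 173 CPM (384.8 to 809.8) at 10% RPS. Jchain, the joining chain of antibodies made by plasma cells, was 57.8 to 88.99% of that sum in each mouse. Its mean was 210.6 ± 232.1 CPM in the controls and 450.8 ± 167.8 CPM in the 10% mice. Without Jchain the sum was 76.1 ± 27.0 CPM (49.5 to 114.1) and 83.6 ± 15.4 CPM (67.2 to 106.3), a difference smaller than the spread between mice. The macrophage genes Cd68 (11.6 ± 3.93 and 7.63 ± 0.742 CPM) and Adgre1 (9.51 ± 3.17 and 7.18 ± 0.844 CPM) and the T cell gene Cd3e (1.32 ± 0.483 and 1.04 ± 0.258 CPM) had lower means at 10% RPS. The control mouse with the most Jchain and the most goblet cell markers was RS10_703, the mouse with high B4galnt2, and the 2% mouse highest in both was RS10_715. Over 20 mice B4galnt2 had r = 0.81 with the goblet cell sum, 0.84 with Jchain and 0.55 with the leukocyte sum without Jchain, on the log2 scale. C1galt1 had r = 0.75, 0.76 and 0.38 with these measures, and Galnt12 had 0.81 with the goblet cell sum. St6galnac6 had r = 0.74 and Galnt3 0.69 with the epithelial sum. With the surface colonocyte sum St6galnac6 had r = 0.68, Galnt3 0.64, C1galt1 0.60, B4galnt2 0.57 and Fut2 0.56. B3gnt6 had 0.42, C1galt1c1 0.38, Galnt12 0.28, B3gnt7 -0.14 and Gcnt3 -0.45 with it. These correlations are descriptions over mice that share diets and library scaling, and the part of the marker shifts and of sequencing depth in the results was not tested.

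**Figure D4:**
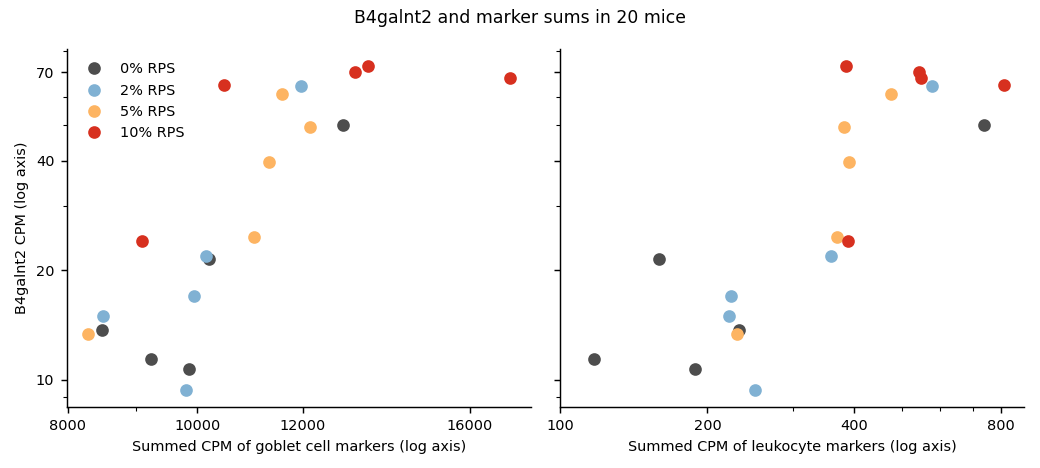
B4galnt2 (CPM, vertical log axis) against the summed CPM of goblet cell markers (left) and of leukocyte markers, mostly Jchain (right), both on log axes, 1 point per mouse coloured by diet. The high mice of the 0% and 2% diets (50.3 and 64.1 CPM) lie among the 10% mice on both panels. The low 10% mouse (24.05 CPM) has the fewest goblet cell markers of its diet. On the right, the 10% mouse with the fewest leukocyte markers (384.8 CPM) has the highest B4galnt2 (73.0 CPM).

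The enzymes varied together in part. Of 45 pairs, 38 had a positive Pearson r over 20 mice (log2 CPM), with a median of 0.36, which was also 0.36 after each diet's mean was removed. C1galt1 and B4galnt2 had the highest r (0.77), Galnt3 and St6galnac6 had 0.70 and Galnt3 and C1galt1 0.69. Gcnt3 had negative values in 6 of its 9 pairs, down to -0.50 with Galnt3 (Spearman rho -0.28). After each diet's mean was removed, its pairs ran from -0.34 (Galnt3) to 0.46 (Galnt12), with a median of 0.019. All points share the library scaling and the diets.

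**Figure D5:**
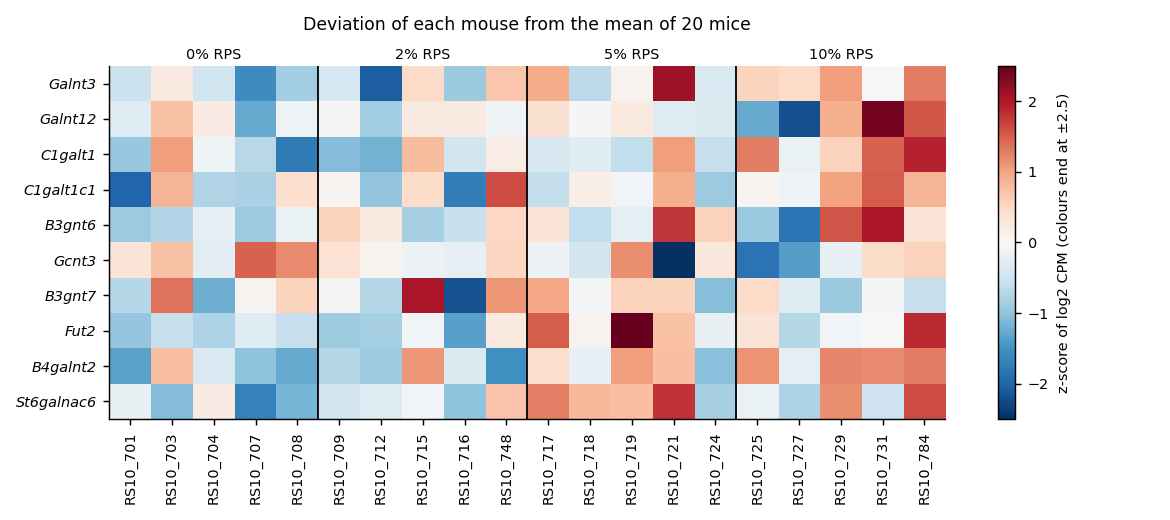
Deviation of each mouse from the mean of 20 mice for each enzyme gene, as z-scores of log2 CPM (red above, blue below the mean), with mice in columns by diet. In mouse RS10_721 Galnt3 and St6galnac6 are at their highest (59.3 and 929.5 CPM) and Gcnt3 at its lowest (41.0 CPM), and the B4galnt2 row is red in 4 of 5 mice at 10% RPS.

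The genes most like the enzymes were sought among 15405 tested protein-coding genes by Pearson r of log2 CPM over 20 mice. Each r below is among the highest of that search, so its size was selected, and none was tested. The mean of the enzymes was closest to Tspan13 (0.93), Ccl6 (0.91), Tm9sf2 (0.91), Hsd17b12 (0.87) and Copb1 (0.87). Galnt3 was closest to Arf4 (0.93) and Fam136a (0.92), and Galnt12 to Zg16 (0.91), a goblet cell lectin, and Ctse (0.88). C1galt1 was closest to Sppl2a and Ythdc2 (both 0.93) and C1galt1c1 to Cisd2 (0.88) and Pi4k2b (0.86). B3gnt6, on 7 to 37 reads a mouse, was closest to Cdhr17 (0.73) and Sdsl (0.71). Gcnt3 was closest to Cdh26 (0.85, Spearman rho 0.56) and Tff3 (0.81, rho 0.67), a goblet cell trefoil peptide. B3gnt7 was closest to Trmt10c and Hs3st1 (both 0.86), and Fut2 to Plscr1 (0.91) and Fam3b (0.89). B4galnt2 was closest to Clca3b and Farp2 (both 0.91), and St6galnac6 to Tmem14c (0.86) and Slc17a9 (0.85).

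Of 118 other genes of mucin glycosylation and the mucus layer, in 7 lists, 106 were tested. At 10, 5 and 2% RPS and for any difference edgeR called 0 of them. DESeq2 called 5 at 10% RPS (beside 1.25% of all genes), 0 at 5% and 2% (beside 0.195% and 0.00386%) and 2 for any difference (beside 2.09%). An unadjusted edgeR p under 0.05 was reached by 25 at 10% RPS (23.6%, beside 15.2% of all tested genes), 16 at 5% (15.1%, beside 9.19%), 1 at 2% (0.943%, beside 1.41%) and 17 for any difference (beside 10.6%). The trend was called for 4 of 106 (3.77%, beside 2.10% of all tested genes), with 33 at an unadjusted p under 0.05 (31.1%, beside 19.1%), and by DESeq2 for 13 (beside 5.60%). Under the treatment label edgeR called a trend for 0 of all tested genes, so these 4 calls rest on the description label. B3galt5, a beta-1,3-galactosyltransferase, rose with RPS from 375.1 ± 67.4 CPM at 0% to 408.4 ± 31.96, 536.8 ± 122.8 and 560.7 ± 119.5 CPM (trend adjusted p = 0.0373). Muc3a, a membrane-bound mucin, rose from 78.4 ± 18.4 CPM to 129.7 ± 29.9 CPM at 10% RPS (adjusted p = 0.0476), on reads that may be shared with related mucin genes. Abo, a blood-group transferase, fell from 19.5 ± 5.72 to 12.2 ± 1.76 CPM (adjusted p = 0.0404), and Galt, which feeds galactose into sugar nucleotides, fell from 29.4 ± 3.70 to 23.4 ± 2.20 CPM (adjusted p = 0.0326).

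In each of the lists of initiating transferases (15 tested), sialylation (16 tested) and sulfation (12 tested), 0 genes were called by edgeR or DESeq2 in any comparison. For the trend in edgeR 3, 3 and 0 of them had an unadjusted p under 0.05, beside 19.1% of all tested genes. Galnt4 had the highest mean CPM over the 20 mice, not scaled by length, of the other initiating transferases (131.1 ± 13.3 CPM without RPS, 145.6 ± 15.5 CPM at 10%). Galnt15 had the smallest trend p, with 23.1 ± 6.79 and 14.6 ± 4.81 CPM (edgeR trend adjusted p = 0.1199). St3gal4 had the highest mean CPM of the sialylation genes, with 418.5 ± 181 CPM without RPS and 472.2 ± 160.2 CPM at 10%, and St6galnac2 had the smallest trend p (adjusted p = 0.0756), with 48.9 ± 6.45 and 40.2 ± 3.40 CPM, although another gene model overlaps it. In sulfation the sulfate transporter Slc26a2 had the highest mean CPM (739.5 ± 207.1 and 801.6 ± 155.6 CPM) and the sulfate donor synthase Papss2 had the smallest trend p (adjusted p = 0.262). Muc2, the substrate, had 2495 ± 505 CPM at 0% RPS and 3106 ± 870 CPM at 10% RPS (edgeR adjusted p = 0.337 in that comparison).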

How the data were processed

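Single-end RNA-seq of the distal colon covered 20 mice, 1 library each, from a stranded mRNA kit. The authors mapped reads to GRCm39 in CLC Genomics Workbench 20.01 and deposited raw counts per gene, not normalised or pooled. The annotation release, the strand setting and how multi-mapping reads were treated are not given in the sources used here.

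Identifiers were matched to GENCODE vM39 (26338 of 26619 found). Counts were analysed in R 4.3.3 with edgeR 4.0.16: filterByExpr (minimum count 10, 17893 genes kept), TMM scaling, a robust quasi-likelihood F-test in 1 fit over the 4 diets, and Benjamini-Hochberg adjustment over all tested genes. CPM uses TMM-scaled library sizes, and log2 CPM a prior count of 2. The procedure was tested on simulated data.

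Samples were grouped by the description label. Mice are separate animals whose numbers pair nothing across diets. No pair of libraries within a diet was a duplicate (40 pairs, chi-square per degree of freedom 9.10 to 62.9), and all 20 held transcripts of 4 Y-linked genes.

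All 10 enzymes are named whatever their values. Of the other pathway genes, those called are named, or else the most abundant of a list and the one with the smallest trend p. Muc2 is named as the substrate. Likeness to an enzyme was ranked by Pearson r over mice. The enzymes and lists were chosen with earlier results of these data known.

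Alternatives were DESeq2 1.42.0, limma-voom (limma 3.58.1), other scaling, no filter, the treatment label, omission of the 3 mice with disagreeing labels, each mouse left out, and transcript length. DESeq2 with mice left out, marker sums without Jchain or Cela1, and unadjusted counts by alternative were added after seeing the data.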

Additional observations from a re-analysis of the deposited data

Results flagged for a closer look

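Dixon's test for a mouse far from the other 4 of its diet was run on 40 groups of 5 values, for 10 enzymes on 4 diets, and 4 passed, where chance gives about 2. B4galnt2 accounted for 3 of them. Mouse RS10_703 at 0% RPS had 50.3 CPM of B4galnt2, and the next control had 21.5 CPM. Mouse RS10_715 at 2% RPS had 64.1 CPM, and the next mouse on that diet had 21.96 CPM. At 10% RPS mouse RS10_727 was low, with 24.05 CPM against 64.6 CPM in the next mouse, and it was also the shallowest library (18.4 megacounts). For C1galt1, mouse RS10_721 at 5% RPS had 155.7 CPM and the next mouse 127.1 CPM, and this is the library with the most RNA of pancreatic genes (6649 CPM). The part of depth or of other tissue in these values was not tested.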

How the results depend on the processing

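Of 1330 values of the enzymes recomputed under the alternatives, 35 changed sign and 8 passed the threshold where the reported value did not. The other 1287 kept their side of the threshold and, where they had one, their direction. Values of the test for any difference have no direction. No enzyme was called at 10, 5 or 2% RPS under any of 7 other settings or with any 1 of 20 mice left out. For the trend, DESeq2 called 2 enzymes (beside 5.60% of all genes) and limma-voom 1 (B4galnt2, adjusted p = 0.0322, beside 2.05%). With single mice left out edgeR called 0 to 2, in fits that called 24 to 1148 of all genes. The fit with 1148, without RS10_727, was among those calling 2 enzymes. For any difference among diets DESeq2 called 1 enzyme (beside 2.09%). With single mice left out DESeq2 called 0 to 3 for that test and 0 to 3 for the trend. The share of all genes called in those DESeq2 fits was not computed. Under the treatment label the log2 fold change was -0.037 for Galnt12 at 5% RPS, and at 2% RPS -0.0017 for C1galt1 and -0.019 for C1galt1c1. Without the 3 mice with disagreeing labels it was, at 2% RPS, -0.0092 for Galnt3, -0.000815 for C1galt1, -0.014 for C1galt1c1, -0.018 for B3gnt7 and -0.040 for Fut2. With single mice left out, B3gnt7 ranged from -0.11 to 0.016 at 10% RPS. At 5% RPS Galnt12 ranged from -0.027 to 0.065, C1galt1 from -0.014 to 0.16, C1galt1c1 from -0.012 to 0.11 and B3gnt7 from -0.026 to 0.10. At 2% RPS Galnt3 ranged from -0.010 to 0.17, Galnt12 from -0.040 to 0.052, C1galt1 from -0.042 to 0.12, C1galt1c1 from -0.015 to 0.11, B3gnt7 from -0.076 to 0.11, Fut2 from -0.042 to 0.097 and B4galnt2 from -0.44 (without RS10_715) to 0.83 (without RS10_703). The cause of these changes was not tested.

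Over all genes, calls at 10% RPS were 7 in edgeR, 211 in DESeq2, 13 with RLE scaling, 3 in a fit of the 2 groups alone, and 0 both under the treatment label and without the mice with disagreeing labels. They ranged from 5 (without RS10_784) to 188 (without RS10_727). Calls at 5% RPS were 0 in edgeR, 29 in DESeq2 and 1 in a fit of the 2 groups alone, and at 2% RPS 0 and 1. Trend calls were 375 in edgeR, 973 in DESeq2, 366 with limma-voom, 0 under the treatment label and 56 without the mice with disagreeing labels, and ranged from 24 (without RS10_784) to 1148 (without RS10_727). Calls of any difference were 13 in edgeR, 353 in DESeq2, 8 with limma-voom, 8 with RLE scaling and 0 under both label alternatives, and ranged from 0 to 42. Mouse numbers pair nothing across diets, so no replicate block was fitted. Depth limits B3gnt6 most, at 7 to 37 reads a mouse.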
